A study of Mus musculus with 49 samples.

Results

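Lactate dehydrogenase B (Ldhb) and 9 other genes of glucose breakdown, 10 of the 38253 genes in the deposited table, were followed through RNA sequencing of 30 normal and 19 leukaemic mouse samples. The members are the glucose transporters Slc2a1 and Slc2a3, the hexokinases Hk1, Hk2 and Hk3, Pfkl, Pgk1, the lactate dehydrogenases Ldha and Ldhb, and Pdk1. Ldhb was taken to have been selected on its FPKM in leukaemias started in ST-HSC against the other leukaemias. That contrast is therefore described below without a test for any member. Ldhb in these leukaemias is not tested against normal cells either. What chose the other 9 members is not known, and whether values of these data played a part was not tested. The members were chosen with earlier results of these data known. All 10 passed the filter on low values (a mean of at least 1 FPKM) in every comparison.

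All donors were wild-type C57BL/6J mice aged 6 to 12 weeks. The 30 normal samples, sorted by surface markers, were 5 of LT-HSC and 5 of ST-HSC (stem cells that repopulate a host for a long or a short term), 6 of multipotent progenitors (MPP), and 5, 5 and 4 of the committed myeloid progenitors CMP (common), GMP (granulocyte and macrophage) and MEP (megakaryocyte and erythrocyte). The leukaemias carried the MLL-AF9 (MA9) fusion from a retrovirus that also expressed GFP, and bear the name of the transduced cell: there were 3 STHSC:MA9, 6 MPP:MA9, 4 CMP:MA9 and 6 GMP:MA9 samples. They arose in sublethally irradiated recipients, so they differ from the normal cells in transduction, transplantation and irradiation of the host as well as in the fusion. The labels give bone marrow for every sample, whereas the study's methods describe GFP-positive leukaemia cells sorted from the spleen. Each sample came from its own mouse.

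Glycolysis splits glucose into pyruvate in the cytosol. Glucose enters through facilitative transporters such as GLUT1 (Slc2a1) and GLUT3 (Slc2a3), hexokinases trap it by phosphorylation, and lactate dehydrogenase interconverts pyruvate and lactate as a tetramer of A (Ldha) and B (Ldhb) subunits. Pyruvate dehydrogenase kinase 1 (Pdk1) is not a glycolytic enzyme but holds back the entry of pyruvate into mitochondrial oxidation. Haematopoietic stem cells are known for a reliance on glycolysis.

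Sorted identities were checked on marker lists. Summed FPKM of 5 stem cell markers was 112 to 522 in LT-HSC, 147 to 295 in ST-HSC, 149 to 284 in MPP and 5.10 to 10.2 in GMP, so this list does not separate the first 3. The sum of 4 granulocyte-macrophage progenitor markers was highest in GMP (16771 to 25332). Kit, a receptor used to sort the progenitors, averaged 57.2 FPKM or more in every normal group and 2.98 or less in every leukaemia group. The summed FPKM of 4 sorting markers did not separate them, at 169 to 271 in leukaemias and 89.9 to 512 in normal samples. LT-HSC and ST-HSC replicates 4 and 5 stood apart. Summed FPKM of 6 granulocyte markers, led by S100a9, was 7566 to 66023 in these 4 libraries and 20.2 to 1147 in the other 6 of those groups. The leukaemias held 596 to 43285 of the same sum. The sum of 6 erythroid markers was also high in LT-HSC replicates 4 and 5 (51094 and 28402) and ST-HSC replicate 4 (27599). It was 4465 in ST-HSC replicate 5 and 217 to 4406 in replicates 1 to 3 of both groups. The summed FPKM of 5 monocyte and macrophage markers, led by Lyz2, was 3634 to 13330 in leukaemias and 148 to 1034 in MPP, CMP and GMP, with up to 9413 in LT-HSC and 4624 in ST-HSC, while its macrophage members C1qa and Mrc1 averaged below 1 FPKM in every group. Some results on LT-HSC and ST-HSC are given both with and without these 4 libraries. The others include them, and their dependence on these libraries is not given. Since the samples are bulk populations, fewer cells of a type and less RNA per cell cannot be told apart.

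The promoters of the lactate dehydrogenase pair are printed because these genes share a reaction and differed in pattern, and that of Hk3 because it had the largest change. RefSeq windows were found for 9 members (12 windows; none for Slc2a3), and the 250 bases before the start are shown on the gene's strand in mm9 coordinates. Ldha had 2 windows, of which window 1 is printed, and both starts lie inside the gene span given below. Capitals mark ACGTG or GCGTG on either strand, the core letters of the hypoxia response element.
Ldhb (chr6:142456478-142456727, minus strand): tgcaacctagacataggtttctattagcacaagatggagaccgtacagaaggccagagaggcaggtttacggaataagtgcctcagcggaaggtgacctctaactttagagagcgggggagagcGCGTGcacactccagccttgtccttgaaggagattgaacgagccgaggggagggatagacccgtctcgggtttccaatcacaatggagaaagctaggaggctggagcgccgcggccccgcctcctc
Ldha (chr7:54100924-54101173, plus strand): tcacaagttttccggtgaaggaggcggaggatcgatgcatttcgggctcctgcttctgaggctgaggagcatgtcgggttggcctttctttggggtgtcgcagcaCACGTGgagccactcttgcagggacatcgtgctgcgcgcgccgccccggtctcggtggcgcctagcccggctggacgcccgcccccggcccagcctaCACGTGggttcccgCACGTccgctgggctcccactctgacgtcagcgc
Hk3 (chr13:55122747-55122996, minus strand): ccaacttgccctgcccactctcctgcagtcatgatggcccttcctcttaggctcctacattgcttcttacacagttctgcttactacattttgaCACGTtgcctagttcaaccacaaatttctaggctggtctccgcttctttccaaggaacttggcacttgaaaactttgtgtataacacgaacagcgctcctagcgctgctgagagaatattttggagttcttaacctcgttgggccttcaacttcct

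The printed Ldha window held 5 matches to ACGTG, counting both strands, of which 4 lay in 2 copies of the palindrome CACGTG. Window 2 of Ldha (chr7:54102202-54102451), not printed, held 1 match to GCGTG, none to ACGTG or CACGTG, and 9 CpG dinucleotides. The Ldhb window held 1 match to GCGTG and none to CACGTG. Among 32851 RefSeq windows of this length, 38.6% held ACGTG or GCGTG and 6.02% held CACGTG. All 9 members with a window held ACGTG or GCGTG in at least 1 of their windows, while window 2 of Hk1 and of Pdk1 held neither. The 38.6% counts windows rather than genes and is not matched on CpG, which both strings contain, so it is no background for this count. The printed windows of Ldhb, Ldha and Hk3 held 14, 25 and 6 CpG dinucleotides, against a median of 6 over all windows. Matches are a description of letters and say nothing of binding.

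Ldhb (ENSMUSG00000030246, mm9 chr6:142438769-142456477) encodes the B subunit. It did not follow the order of differentiation: it was high in stem cells, MPP and GMP, lower in CMP and nearly absent in MEP. Ldhb was at 26.9, 75.02, 49.4, 22.0 and 17.3 FPKM in LT-HSC replicates 1 to 5. In ST-HSC it was at 39.2, 38.4, 42.3, 25.9 and 29.5 FPKM. The lowest 2 values of both groups were replicates 4 and 5. These libraries had high granulocyte markers and, apart from ST-HSC replicate 5, high erythroid markers, whose part in this was not tested. In MPP it ranged from 37.0 to 72.5 FPKM with a median of 63.0. In CMP it was at 12.4, 14.6, 18.4, 10.2 and 9.85 FPKM, all below every MPP sample. GMP samples returned to 45.3, 56.6, 48.2, 53.9 and 53.5 FPKM. MEP samples were at 2.48, 1.39, 1.87 and 2.78 FPKM, below every other normal sample.

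**Figure D1:**
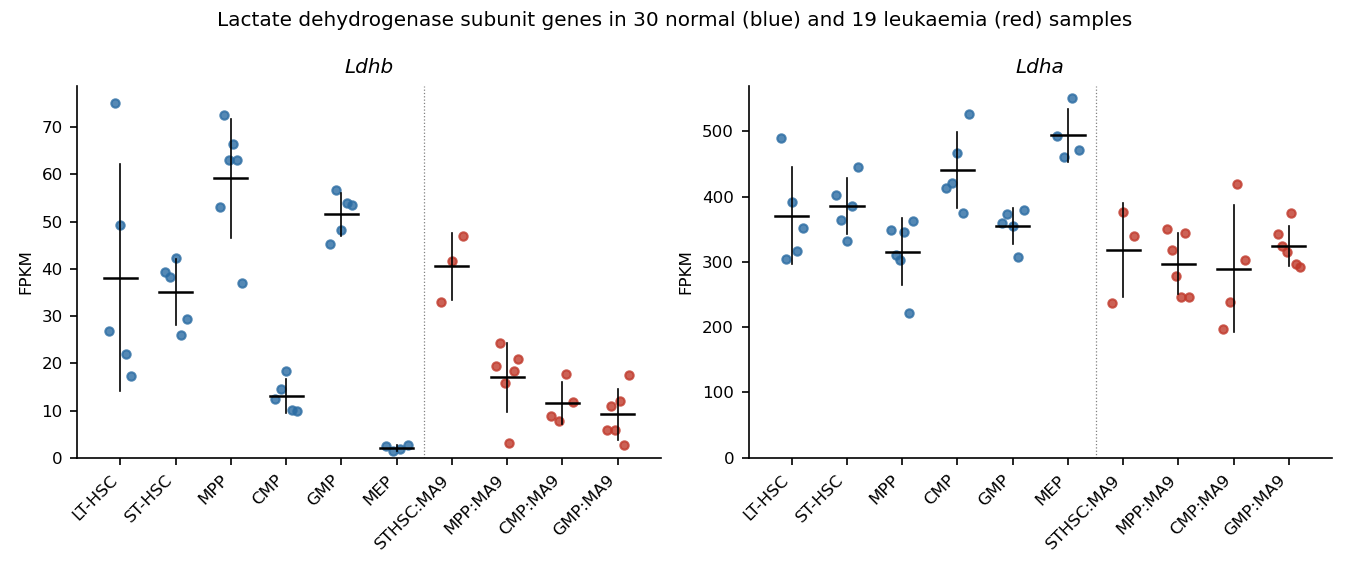
FPKM of Ldhb (left) and Ldha (right) in each sample, by group; blue points are normal samples, red points leukaemias, horizontal lines group means and vertical lines 1 SD. Ldhb spanned 1.39 to 75.02 FPKM over normal samples, and Ldha stayed between 197 and 551 FPKM over all 49.

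These steps were larger than the spread between samples. Ldhb was higher in MPP than in CMP by 2.10 on the log2 scale (SE 0.25, limma adjusted p = 1.35e-06), lower in CMP than in GMP (log2 difference -1.93, SE 0.26, adjusted p = 1.60e-06) and higher in CMP than in MEP (2.16, SE 0.28, adjusted p = 8.45e-07). Log2 differences throughout are on log2(FPKM + 1), which understates changes of low genes, and a call needed more than 2-fold change besides an adjusted p under 0.05. MPP exceeded ST-HSC by less (ST-HSC minus MPP -0.73, SE 0.25, adjusted p = 0.0410), short of the fold threshold, and the adjusted p was 0.105 without replicates 4 and 5 of LT-HSC and ST-HSC. LT-HSC and ST-HSC did not differ detectably (-0.07, adjusted p = 0.921).

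In leukaemias, Ldhb was at 32.9, 41.6 and 47.0 FPKM in STHSC:MA9. It ranged from 3.16 to 24.3 FPKM in MPP:MA9 with a median of 18.9. CMP:MA9 samples were at 8.85, 7.72, 17.7 and 11.8 FPKM. GMP:MA9 samples ranged from 2.80 to 17.5 FPKM with a median of 8.41. Every MPP:MA9 sample lay below every MPP sample (log2 difference -1.90) and every GMP:MA9 sample below every GMP sample (-2.55). CMP:MA9 overlapped the already low CMP (-0.20). STHSC:MA9 and ST-HSC overlapped, with means of 40.5 ± 7.12 (SD, n = 3) and 35.1 ± 6.97 FPKM (SD, n = 5). These differences are a description, since the levels in all 4 leukaemia groups were taken to have chosen the gene.

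Ldha (ENSMUSG00000063229, mm9 chr7:54096845-54110997), the A subunit, was the more abundant transcript in every sample. It was at 461 to 551 FPKM in the 4 MEP samples, with the highest group mean, and 375 to 525.96 FPKM in CMP. In MPP it ranged from 222 to 362 FPKM, below every CMP sample (log2 difference -0.49, SE 0.12, limma adjusted p = 0.00763). It was called in no comparison at more than 2-fold. The largest difference between a leukaemia and its origin was in CMP:MA9, whose samples were at 197, 239, 419 and 303 FPKM (a difference of -0.65, SE 0.16, adjusted p = 8.24e-04). Of its exonic 31-base windows 17.6% were shared with another gene, and 11.3% of those of Ldhb, so reads may be divided among copies.

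The balance of the subunits was followed as the share of Ldhb in the summed FPKM of the pair. The share was 0.301% to 0.586% in MEP, 1.84% to 3.79% in CMP, 11.2% to 14.9% in GMP and 9.26% to 22.1% in MPP. In leukaemias it is given without a test for the same reason. Means were 5.32% ± 2.28 in MPP:MA9 and 16.1% ± 4.48 in MPP (SD, n = 6 each). GMP:MA9 stood at 2.74% ± 1.68 (SD, n = 6) and GMP at 12.7% ± 1.42 (SD, n = 5). CMP:MA9 averaged 3.81% and CMP 2.91%. STHSC:MA9 was at 11.4% ± 1.29 (SD, n = 3) and ST-HSC at 8.45% ± 2.19 (SD, n = 5).

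Among normal groups all 10 members differed by the limma F test at an adjusted p below 0.05, as did 78.4% of all genes tested. At single steps, 0 of 10 members were called by limma between LT-HSC and ST-HSC (2.26% of genes called) and 0 between ST-HSC and MPP (3.44%). Ldhb was the 1 member called between MPP and CMP (4.32%). Ldhb, Hk1 and Slc2a3 were called between CMP and GMP (11.2%), and Ldhb, Hk2, Hk3 and Slc2a1 between CMP and MEP (11.8%). After correction for GC content and length the count between CMP and GMP was again 3, but Hk1 and Slc2a3 were lost and Hk2 (-1.03) and Hk3 (-1.94) were called. At an adjusted p below 0.05 alone, 0, 5, 4, 5 and 6 members passed at these steps (9.19%, 18.9%, 14.5%, 36.7% and 31.6% of genes). At an unadjusted p below 0.05, 1 and 6 passed at the first pair of steps, with the share of all genes not computed. At the first 4 of these steps the sample ranges did not overlap for 0, 2, 4 and 6 members (3.53%, 12.1%, 13.6% and 34.7% of genes). Without replicates 4 and 5, Hk3 was called at each of the first pair of steps.

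The comparison of each leukaemia with its own normal cell asked which of these genes change from normal cell to leukaemia. In STHSC:MA9, 3 of 9 members tested were called (24.2% of all genes). Without LT-HSC and ST-HSC replicates 4 and 5 the count was 3 as well (3266 of 12586 genes). In MPP:MA9 it was 5 of 9 (27.1%), in CMP:MA9 3 of 9 (27.8%) and in GMP:MA9 0 of 9 by limma (22.4%). In GMP:MA9 4 passed at an unadjusted p below 0.05, a threshold for which the share of all genes was not computed. At an adjusted p below 0.05 alone the counts were 5, 6, 8 and 4 (48.4%, 62.5%, 59.8% and 58.4% of genes). The sample ranges did not overlap for 4, 4, 5 and 3 of the 9 members (39.6%, 40.3%, 48.4% and 39.6% of genes). The median log2 change of all genes was -0.04, -0.09, -0.16 and 0.00 in the same order. Hk1 fell and Hk3 rose at 3 of the origins.

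**Figure D2:**
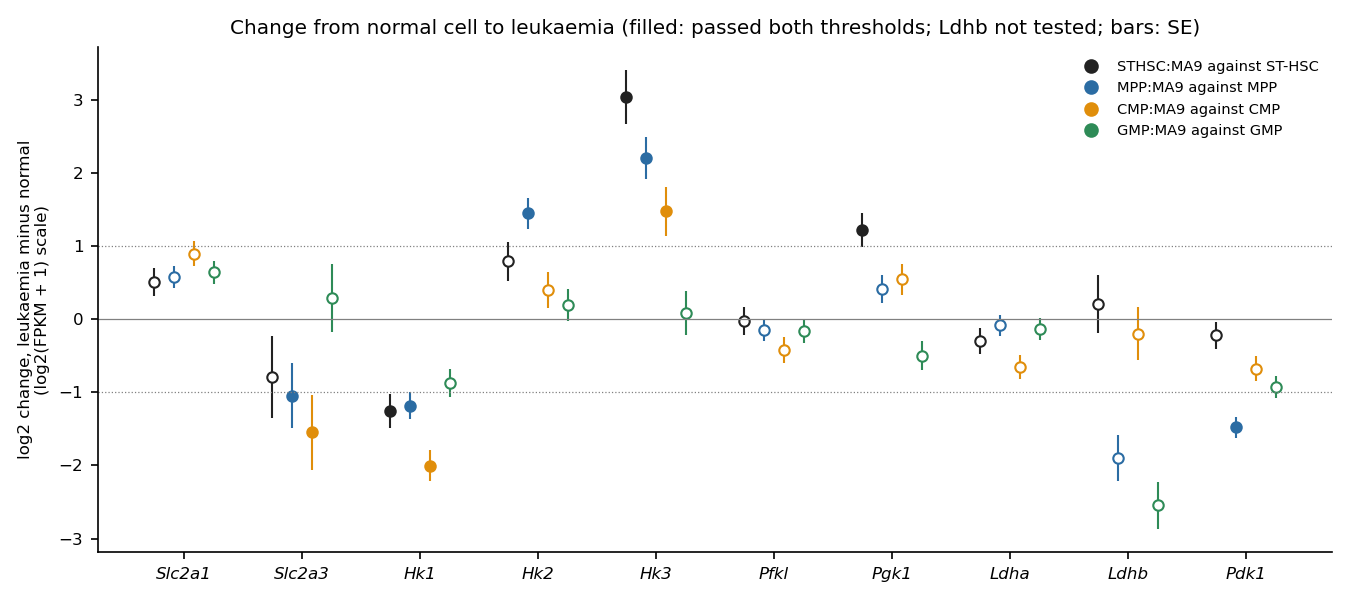
Log2 change from normal cell to leukaemia on the log2(FPKM + 1) scale for the 10 members at 4 origins, with SE bars; filled points passed both thresholds and dotted lines mark the fold threshold. Hk3 lay highest in STHSC:MA9 (3.04) and Ldhb lowest in GMP:MA9 (-2.55). Ldhb is drawn open throughout because no test of it is used here.

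Slc2a1 (mm9 chr4:118781316-118809935), the widely expressed GLUT1, ranged from 0.910 to 12.6 FPKM over normal samples and from 10.1 to 25.1 FPKM over leukaemias. MEP was lowest, at 1.45, 1.30, 0.910 and 3.26 FPKM, all below CMP (log2 difference CMP minus MEP 1.74, SE 0.22, limma adjusted p = 6.93e-07). Each leukaemia group was higher than its origin at an adjusted p below 0.05 but none by 2-fold. The changes were 0.51 (SE 0.19, limma adjusted p = 0.0256) in STHSC:MA9, 0.57 (SE 0.15, adjusted p = 0.00124) in MPP:MA9, 0.89 (SE 0.17, adjusted p = 3.98e-05) in CMP:MA9 and 0.64 (SE 0.16, adjusted p = 7.21e-04) in GMP:MA9. Every CMP:MA9 sample lay above every CMP sample, and every GMP:MA9 sample above every GMP sample. Under median-ratio scaling the CMP:MA9 change was 1.07 and called.

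Slc2a3 (mm9 chr6:122677827-122751658), the high-affinity GLUT3, was highest in stem cells. LT-HSC samples were at 25.7, 44.8, 25.8, 89.0 and 60.7 FPKM, and ST-HSC samples at 33.7, 33.9, 22.9, 60.0 and 35.7 FPKM. The highest value of each group was replicate 4, which also had the highest granulocyte and erythroid sums, and the part of those markers in the level was not tested. GMP was lowest among normal cells, at 4.87 to 9.60 FPKM, below every CMP sample (log2 difference CMP minus GMP 1.24, SE 0.25, limma adjusted p = 2.71e-04), and 0.96, short of the fold threshold, after correction for GC content and length. In CMP:MA9 Slc2a3 was at 2.75, 10.4, 14.4 and 2.03 FPKM, below all CMP samples at 14.6 to 22.6 (log2 change -1.55, SE 0.51, adjusted p = 0.00977). The call was lost without CMP:MA9 replicate 1 or 4 (adjusted p = 0.0507 and 0.0667). In MPP:MA9 the samples spread from 2.03 to 58.4 FPKM and overlapped MPP at 16.3 to 23.5 (log2 change -1.05, SE 0.44, adjusted p = 0.0382). That call was lost without any of MPP replicates 1, 2, 3 and 4 or MPP:MA9 replicates 1, 3, 4 and 6, with adjusted p from 0.0519 to 0.155. It was also lost without the filter on low values (adjusted p = 0.0660), under median-ratio scaling (-0.95, adjusted p = 0.0664), with only the groups compared in the fit (adjusted p = 0.0997) and after GC and length correction (-0.96, adjusted p = 0.0585).

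The share of Slc2a3 in the summed FPKM of both transporters was lower in STHSC:MA9, at 59.0% ± 15.8 (SD, n = 3), than in ST-HSC, at 79.1% ± 3.47 (SD, n = 5) (exact permutation test, two-sided, adjusted over 15 tests of shares, p = 0.0335, on the smallest p this size allows, 0.0179). The difference was -20.1 percentage points, and -11.0 without STHSC:MA9 replicate 2, and leaving out any sample of these groups lost the call, as fewer splits remain. The share was 64.6% in MPP and 35.9% ± 20.3 (SD, n = 6) in MPP:MA9 (exact permutation test, adjusted p = 0.0335). MPP:MA9 samples spread from 14.5% to 70.0% and overlapped MPP at 61.1% to 68.4%, with MPP:MA9 replicate 2 above every MPP sample. With each sample left out the difference was -35.5 to -24.4 points. The share was 70.1% in CMP and 28.3% in CMP:MA9 (exact permutation test, adjusted p = 0.0238). GMP at 47.7% and GMP:MA9 at 41.6% did not differ detectably (exact permutation test, adjusted p = 0.445). The 15 tests include the Ldhb share in MPP:MA9, CMP:MA9 and GMP:MA9, whose results are not reported here but enter the adjustment. The adjusted p of the Slc2a3 and Hk3 shares are smaller with these Ldhb tests than they would be without them. Unadjusted p by the exact permutation test was 0.0179, 0.0152 and 0.00794 for Slc2a3 in STHSC:MA9, MPP:MA9 and CMP:MA9.

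**Figure D3:**
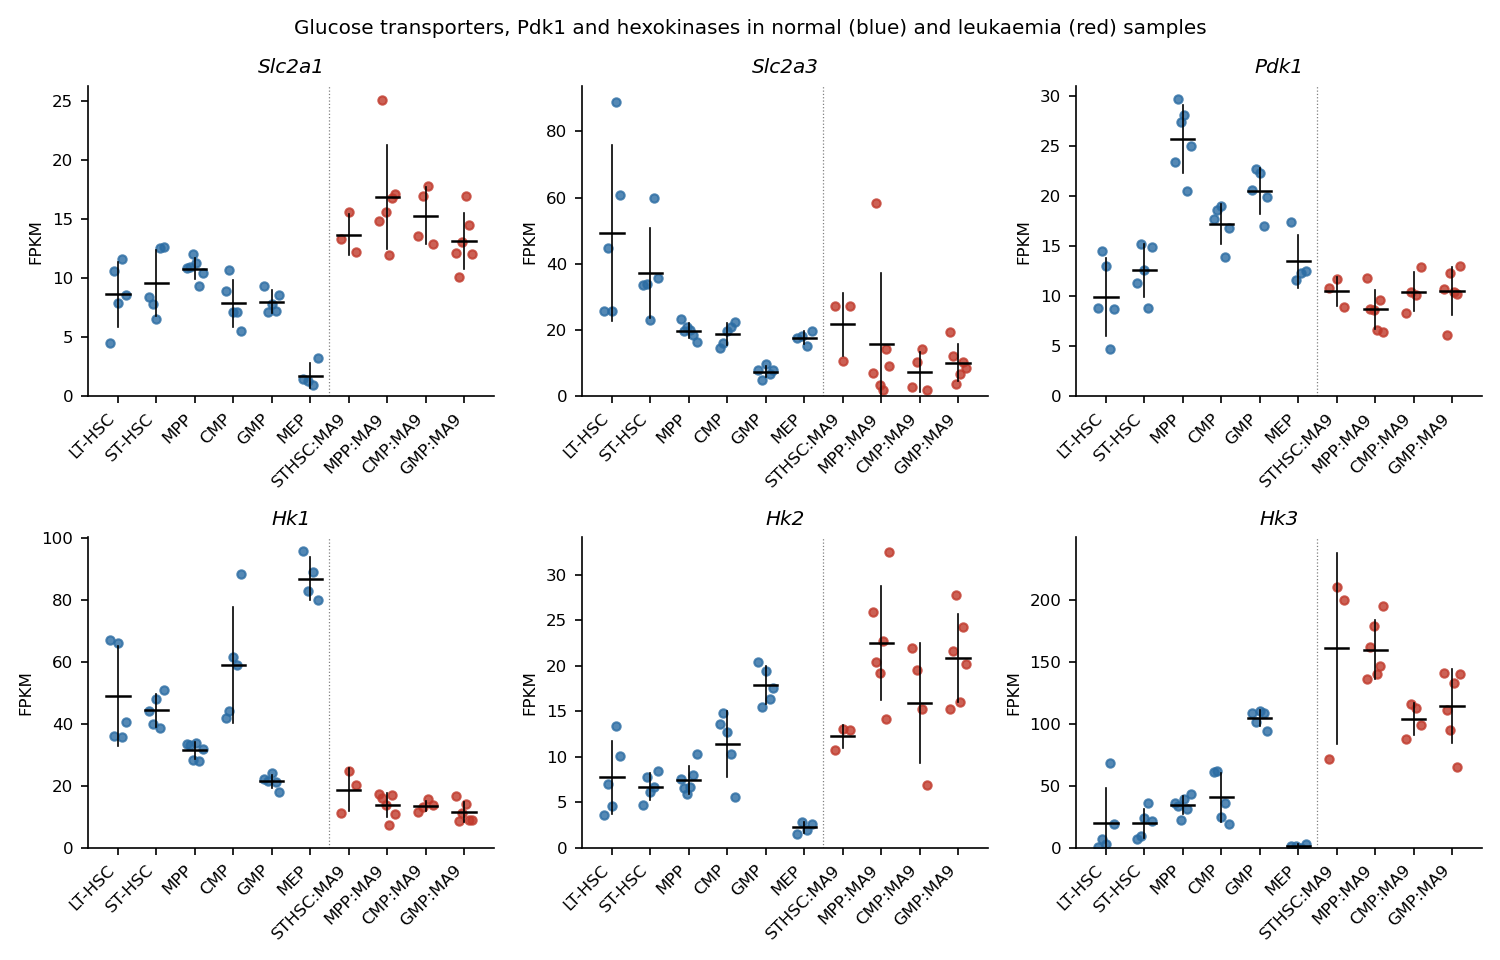
FPKM of Slc2a1, Slc2a3, Pdk1, Hk1, Hk2 and Hk3 in each sample; blue points are normal samples, red points leukaemias, horizontal lines group means and vertical lines 1 SD, cut at 0. All leukaemias lay at 24.7 FPKM or below for Hk1 and at 65.4 FPKM or above for Hk3.

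Hk3 (mm9 chr13:55107346-55122746), a hexokinase of myeloid cells, had the largest change. In MEP it was at 1.46, 1.24, 0.160 and 3.38 FPKM, and CMP exceeded MEP by 4.03 on the log2 scale (SE 0.65, limma adjusted p = 2.10e-05). LT-HSC samples were at 0.590, 6.76, 3.03, 68.6 and 19.5 FPKM, and ST-HSC samples at 6.90, 9.82, 23.8, 36.1 and 21.2 FPKM. The highest values again belonged to replicate 4 of both groups. Without replicates 4 and 5, Hk3 was lower in LT-HSC than in ST-HSC (-1.81, adjusted p = 0.0187), against -0.92 (adjusted p = 0.387) with them. Without LT-HSC replicate 4 alone it was called too (-1.65, adjusted p = 0.0364). Without replicates 4 and 5 it was also lower in ST-HSC than in MPP (-1.43, adjusted p = 0.0172), against -0.96 (adjusted p = 0.262) with them. GMP samples lay close together at 94.1 to 110 FPKM, above every CMP sample, at 19.1 to 61.6 (CMP minus GMP -1.49, SE 0.61, adjusted p = 0.0555, or 0.0445 with the replicate number as a block).

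The mean Hk3 level was 104 to 161 FPKM in the 4 leukaemia groups, against 104.5 ± 6.75 (SD, n = 5) in GMP. STHSC:MA9 samples were at 71.9, 210 and 199.6 FPKM, and all lay above every ST-HSC sample (log2 change 3.04, SE 0.37, limma adjusted p = 1.20e-08, and 3.50 without replicates 4 and 5). MPP:MA9 ranged from 136 to 195 FPKM, above MPP at 22.2 to 43.3 (2.20, SE 0.29, adjusted p = 3.56e-08). CMP:MA9 samples were at 87.7, 116, 112 and 98.5 FPKM (1.47, SE 0.34, adjusted p = 3.05e-04). GMP:MA9 at 65.4 to 141 FPKM overlapped GMP (0.08, SE 0.30, adjusted p = 0.843). The monocyte and macrophage sum was also higher in the leukaemias than in MPP, CMP and GMP, with no overlap, and its part in the Hk3 levels was not tested.

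Hk1 (mm9 chr10:61731603-61842656), the housekeeping hexokinase that binds mitochondria, ran the other way. MEP was at 80.0 to 95.8 FPKM and CMP at 42.0 to 88.4, against 18.1 to 24.2 in GMP (CMP minus GMP 1.37, SE 0.17, limma adjusted p = 4.27e-07). This call was lost after correction for GC content and length (0.83). STHSC:MA9 samples at 11.3, 24.7 and 20.4 FPKM lay below all ST-HSC samples at 38.6 to 51.0 (log2 change -1.26, SE 0.23, adjusted p = 2.36e-05). Without STHSC:MA9 replicate 1 the change was -0.94 and short of the fold threshold. MPP:MA9 at 7.28 to 17.4 FPKM lay below MPP at 28.0 to 34.0 (-1.18, SE 0.18, adjusted p = 7.40e-07). CMP:MA9 at 11.6 to 15.7 FPKM lay below CMP (-2.004, SE 0.21, adjusted p = 4.91e-10). GMP:MA9 at 8.76 to 16.6 FPKM lay below GMP without reaching 2-fold (-0.88, SE 0.19, adjusted p = 1.84e-04).

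Hk2 (mm9 chr6:82675019-82724448), the inducible hexokinase, was lowest in MEP at 1.53 to 2.88 FPKM, and CMP exceeded it by 1.89 (SE 0.26, limma adjusted p = 1.79e-06). It rose in MPP:MA9, at 14.2 to 32.6 FPKM against 5.86 to 10.3 in MPP (log2 change 1.45, SE 0.21, adjusted p = 2.53e-07). STHSC:MA9 samples at 10.7, 13.0 and 13.0 FPKM lay above all ST-HSC samples, at 4.69 to 8.41, short of the fold threshold (0.79, SE 0.27, adjusted p = 0.0130). In CMP:MA9 (0.40, adjusted p = 0.156) and GMP:MA9 (0.19, adjusted p = 0.476) the samples overlapped those of the origin.

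**Figure D4:**
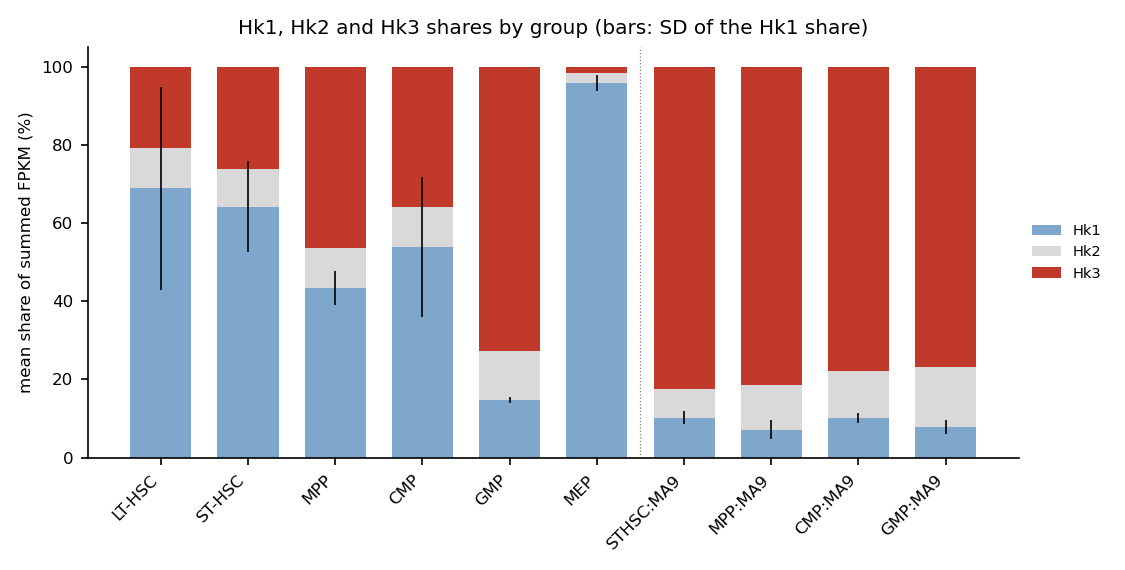
Mean share of Hk1, Hk2 and Hk3 in their summed FPKM (stacked bars, %) in each group; error bars are 1 SD of the Hk1 share. Hk3 held 76.9% to 82.3% on average in the 4 leukaemia groups and 1.75% in MEP.

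As a share of the summed hexokinase FPKM, Hk3 was higher in STHSC:MA9, at 82.3% ± 5.04 (SD, n = 3), than in ST-HSC, at 26.1% ± 12.5 (SD, n = 5) (exact permutation test, adjusted p = 0.0335). It was at 46.4% in MPP and 81.4% in MPP:MA9 (exact permutation test, adjusted p = 0.0108), and at 35.9% in CMP and 77.9% in CMP:MA9 (exact permutation test, adjusted p = 0.0238). GMP already stood at 72.7% ± 1.07 (SD, n = 5), and GMP:MA9 at 76.9% ± 6.79 (SD, n = 6) did not differ detectably (exact permutation test, adjusted p = 0.321). These adjusted p too are smaller for the Ldhb tests adjusted with them. Unadjusted p by the exact permutation test was 0.0179, 0.00216 and 0.00794 for Hk3 in STHSC:MA9, MPP:MA9 and CMP:MA9. The Hk2 share differed at none of the 4 origins, with adjusted p from 0.425 to 0.587 by the exact permutation test and unadjusted p from 0.321 to 0.587.

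Pgk1 (mm9 chrX:103382439-103399038), an enzyme of an ATP-making step of glycolysis, was highest in GMP among normal cells, at 201 to 293 FPKM. It rose in STHSC:MA9, where samples at 242, 301 and 336 FPKM lay above ST-HSC at 107 to 137 (log2 change 1.22, SE 0.24, limma adjusted p = 5.45e-05). In GMP:MA9 the samples spread from 95.4 to 266 FPKM (-0.50, SE 0.20, adjusted p = 0.0284). Of its exonic 31-base windows 48.5% were shared with another gene, so its level is uncertain. Pfkl (mm9 chr10:77449692-77472828), the liver-type subunit of phosphofructokinase, ranged from 9.14 to 28.6 FPKM over all samples. It was called in none of these comparisons, with its clearest difference in ST-HSC at 11.8 to 18.7 FPKM against MPP at 18.3 to 24.1 (-0.53, SE 0.12, adjusted p = 0.00361).

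Pdk1 (mm9 chr2:71711281-71741915) was highest in MPP, at 20.5 to 29.7 FPKM, above every ST-HSC sample, at 8.85 to 15.2 (ST-HSC minus MPP -0.99, SE 0.18, limma adjusted p = 3.10e-04), and this difference passed 2-fold without ST-HSC replicate 2 or 5 or MPP replicate 1 or 5. Leukaemias of all origins fell within 6.14 to 13.0 FPKM. MPP:MA9 at 6.46 to 11.8 FPKM lay below every MPP sample (log2 change -1.48, SE 0.14, adjusted p = 4.79e-11). CMP:MA9 (-0.68, SE 0.17, adjusted p = 7.83e-04) and GMP:MA9 (-0.93, SE 0.15, adjusted p = 3.32e-06) also lay below their origins without overlap, short of the fold threshold. After correction for GC content and length Pdk1 and Hk1 were both called in GMP:MA9 (-1.10 and -1.18), making 2 of 9 in place of 0. Of all genes, 2593 of 12090 were called with that correction. STHSC:MA9 overlapped ST-HSC (-0.22, SE 0.18, adjusted p = 0.328).

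Whether the change on transformation itself differed among the 4 origins was asked with a limma F test, leaving out Ldhb. It differed for Hk3 (adjusted p = 2.81e-05), Pgk1 (adjusted p = 2.98e-04), Pdk1 (adjusted p = 4.01e-04), Hk2 (adjusted p = 0.00626) and Hk1 (adjusted p = 0.0135), 5 of 9 members against 38.0% of all genes tested. For Ldha, Slc2a3, Slc2a1 and Pfkl the adjusted p was 0.117, 0.127, 0.517 and 0.543.

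Between leukaemias, Ldhb was the 1 member whose 3 STHSC:MA9 samples (32.9 to 47.0 FPKM) lay apart from all 16 other leukaemias (2.80 to 24.3 FPKM). This separation was taken to be what chose the gene, and 1.82% of all genes lay apart, 0.742% in this direction. The log2 difference from the mean of the other groups was 1.79. The closest sample outside was MPP:MA9 replicate 2, at 24.3 FPKM. The STHSC:MA9 samples also had granulocyte sums of 16321 to 43285 FPKM, and 3 others, MPP:MA9 replicates 2 and 5 and CMP:MA9 replicate 3, fell in that range, with Ldhb at 24.3, 18.3 and 17.7 FPKM. The part of these markers in the level was not tested. For the other members the ranges overlapped. Pgk1 was at 242 to 336 FPKM in STHSC:MA9 against a median of 178 in the others, Slc2a3 at 10.7 to 27.3 against 8.77, and Hk2 at 10.7 to 13.0 against 20.3.

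The other genes of glucose metabolism were taken from 6 lists of 85 genes, of which 67 were tested against the normal cells. In STHSC:MA9 20 were called higher and 6 lower, in MPP:MA9 19 and 5, in CMP:MA9 18 and 7, and in GMP:MA9 8 and 4. All genes were called higher in 12.3%, 13.5%, 13.0% and 13.5% and lower in 11.9%, 13.6%, 14.8% and 8.87% in the same order. Between STHSC:MA9 and the mean of the other leukaemias 0 of 67 were called by limma (0.849% of all genes). At an unadjusted p below 0.05, 21 passed, but the share of all genes at that threshold was not computed, so this count has no background. At an adjusted p below 0.05 alone 2 passed (3.36% of genes): Dld, a shared subunit of mitochondrial dehydrogenases (0.66, adjusted p = 0.0407), and Pgls, of the pentose phosphate pathway (-0.95, adjusted p = 0.0236).

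By list, glycolytic enzymes had 8 higher and 3 lower of 19 tested in STHSC:MA9, 9 and 1 in MPP:MA9, 7 and 2 in CMP:MA9, and 1 and 0 in GMP:MA9. Their median log2 change was 0.62, 0.96, 0.65 and 0.18. The pentose phosphate pathway, which draws on glucose 6-phosphate to make NADPH, had 4, 3, 2 and 0 of 7 genes higher and none lower, with medians of 1.34, 0.94, 0.62 and -0.27. Of 11 genes of pyruvate entry to mitochondria 1, 0, 0 and 0 were higher and 1 lower at each origin. Hypoxia-responsive genes had 2, 3, 3 and 2 of 10 higher and none lower, and regulators of glucose use 2, 1, 3 and 2 of 13 higher and 1, 2, 3 and 2 lower.

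Of 7 lactate and hexose carriers tested, 3 were called higher and 1 lower at each origin. Slc16a3 and Slc2a6 rose and Slc16a1 fell at all 4, and the third higher carrier was Slc2a8 in MPP:MA9 and Slc2a9 in the other groups. Slc16a1 (MCT1), the lactate carrier of most cells, was at 8.43 to 12.8 FPKM in ST-HSC and 20.6 to 26.0 in GMP. In leukaemias it was at 0.460 to 6.04 FPKM, below every normal sample. Its log2 change was -1.57 (SE 0.28, limma adjusted p = 2.05e-05) in STHSC:MA9 and -2.52 (SE 0.24, adjusted p = 5.99e-11) in GMP:MA9. Slc16a3 (MCT4), the carrier of lactate-exporting cells, was at 0.69 to 7.27 FPKM in ST-HSC and 1.34 to 3.23 in MPP, CMP and GMP. It was at 12.5 to 27.7 FPKM in leukaemias, a log2 change of 2.54 (SE 0.32, adjusted p = 2.67e-08) in STHSC:MA9 and 3.05 (SE 0.25, adjusted p = 6.43e-13) in MPP:MA9. LT-HSC samples, at 0.35 to 13.3 FPKM, overlapped the leukaemias for Slc16a3. Slc2a6, a hexose carrier of the GLUT family, was at or below 5.20 FPKM in ST-HSC, MPP, CMP and GMP samples and at 8.04 to 44.0 FPKM in leukaemias, with a log2 change of 3.46 (SE 0.34, adjusted p = 7.42e-11) in MPP:MA9. LT-HSC samples, at 0.07 to 8.66 FPKM, overlapped the leukaemias here too.

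**Figure D5:**
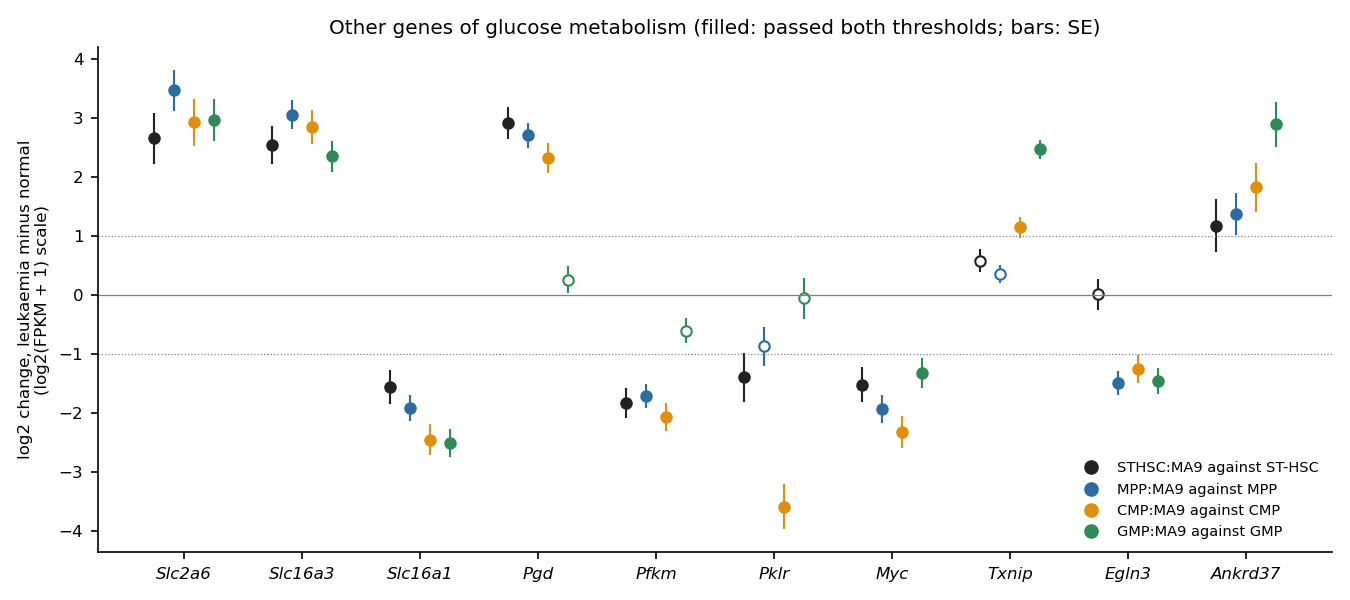
Log2 change from normal cell to leukaemia on the log2(FPKM + 1) scale for 10 other genes of glucose metabolism at 4 origins, with SE bars; filled points passed both thresholds. Slc2a6, Slc16a3 and Ankrd37 rose and Slc16a1 and Myc fell at all 4 origins, and Pgd was called at 3.

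Pgd, which makes NADPH in the pentose phosphate pathway, rose by 2.91 in STHSC:MA9 (SE 0.27, limma adjusted p = 5.22e-11), 2.70 in MPP:MA9 and 2.32 in CMP:MA9. In GMP, already at 135 to 202 FPKM, the change was 0.26 (adjusted p = 0.346). The muscle-type phosphofructokinase Pfkm fell by 1.84, 1.72 and 2.07 at the same 3 origins, while its change in GMP:MA9 was -0.61. Pklr, the pyruvate kinase of liver and red cells, averaged 59.1 FPKM in MEP and was listed at 0.05 FPKM or less in all leukaemias. It fell by 3.59 in CMP:MA9 (SE 0.38, adjusted p = 5.36e-10), a size that depends on the pseudocount.

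Among regulators, Myc, a transcription factor that drives glycolytic genes, fell at all 4 origins, from 238 to 290 FPKM in CMP to 42.7 to 82.1 in CMP:MA9 (-2.33 on the log2 scale, SE 0.28, limma adjusted p = 6.42e-09). Txnip, which restrains glucose uptake, rose in GMP:MA9 from 39.4 to 50.1 FPKM in GMP to 189 to 285 FPKM (2.46, SE 0.16, adjusted p = 6.53e-15), and its change in STHSC:MA9 was 0.58 (adjusted p = 0.0129). Egln3, an oxygen sensor of the HIF pathway, fell by 1.46 in GMP:MA9 (in MPP:MA9 the log2 change was -1.499), whereas STHSC:MA9 and ST-HSC did not differ detectably (0.01, SE 0.26, adjusted p = 0.983). Ankrd37, a hypoxia-responsive gene, rose by 2.89 in GMP:MA9 (SE 0.38, adjusted p = 6.10e-08).

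Over the 10 group means of log2(FPKM + 1), the genes most like Ldhb among 12155 were Snx6 (Pearson r = 0.947), Il21r (0.945), Dock1 (0.916), Dennd2d (0.915) and Peli2 (0.915). Over the 49 single samples the same coefficients were 0.737, 0.774, 0.859, 0.816 and 0.791. Snx6 moved over a narrower range than Ldhb, with group means of 16.3 to 29.9 FPKM. For Hk3 the closest were Arl11 (0.992), Gria3 (0.990) and Tmem43 (0.989), for Slc2a1 Cflar (0.989), Plcg2 (0.989) and Atp2a3 (0.988), and for Ldha Zbtb1 (0.975), Rrp8 (0.964) and 1190002N15Rik (0.957). The samples share amplification and group structure, so these are descriptions of likeness.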

How the data were processed

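RNA was measured in 49 samples, 30 normal and 19 leukaemic, as described above. The authors amplified cDNA (NuGEN Ovation V2), sequenced it on an Illumina instrument and deposited FPKM (fragments per kilobase of transcript, scaled to the sequenced total), estimated with RSEM for 38253 Ensembl genes; the submitters' processing notes name RSEM and mm9, and the RSEM version is not given in the sources used here. Read totals are not part of these values. Summed FPKM was 694414 to 955433 a sample and 15282 to 17852 genes were above 0. Of 68 columns, 49 matched a label and 19 were not used. Symbols and positions (33068 genes) came from GENCODE M1 on NCBIM37, the assembly of mm9. Promoters are RefSeq windows (GRCm38.p6) matched exactly to NCBIM37.

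The deposited FPKM were tested as log2(FPKM + 1) with limma 3.58.1 in R 4.3.3 (eBayes with a trend, two-sided, Benjamini-Hochberg over all genes), keeping genes whose mean reached 1 FPKM: 12600 in 8 groups, 12367 in the 6 normal groups and 12128 in the 4 leukaemias. The study tested RSEM counts with a count model, which FPKM do not allow; its fold and adjusted p thresholds (2 and 0.05) were kept. Shares were compared by exact permutation tests. Other steps used Python 3.11.15. The members and gene lists were chosen with earlier results of these data known. Named were all members, the 3 largest rises and falls among called genes of the other lists in each leukaemia, and the genes most like Ldhb (5), Ldha, Hk3 and Slc2a1 (3 each) by Pearson correlation of group means.

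LT-HSC and ST-HSC samples of the same replicate number deviated together (correlation 0.142 to 0.682 in 5 of 5 pairs), so the numbers were taken to pair them; the block changed no call of a member there. Each sample came from its own mouse. Alternatives were another pseudocount, no low filter, median-ratio scaling, only the groups compared, a replicate block, no fold threshold, correction for GC content and length, each sample left out, and, added after seeing the data, scaling to nuclear genes and leaving out LT-HSC and ST-HSC replicates 4 and 5.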

Additional observations from a re-analysis of the deposited data

Results flagged for a closer look

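Of 90 sets of samples (a member in a group of 4 to 6), 3 had a lowest sample far from the rest by Dixon's test, where about 1 set in 20 is expected by chance. Ldhb was at 3.16 FPKM in MPP:MA9 replicate 4, against 15.8 to 24.3 FPKM in the other 5. That sample also had the lowest granulocyte sum of all leukaemias (596 FPKM). Ldha was at 222 FPKM in MPP replicate 5, against 303 to 362 FPKM in the others. Pdk1 was at 6.14 FPKM in GMP:MA9 replicate 2, against 10.2 to 13.0 FPKM in the others.

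By the limma F test, 5 members changed by different amounts at the 4 origins of leukaemia: Hk3 (adjusted p = 2.81e-05), Pgk1 (adjusted p = 2.98e-04), Pdk1 (adjusted p = 4.01e-04), Hk2 (adjusted p = 0.00626) and Hk1 (adjusted p = 0.0135).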

How the results depend on the processing

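Of 830 values of single members under settings other than leaving out a sample, 746 kept direction and side of the threshold. Of 100 counts of members, 87 were equal or near to the main count, which can hide a change in the members called. Those totals include Ldhb in MPP:MA9, CMP:MA9 and GMP:MA9, which the report leaves without a test. The member counts below leave it out there unless stated. Without the fold threshold the members called were 5 in STHSC:MA9, 8 in CMP:MA9 and 4 in GMP:MA9 (48.4%, 59.8% and 58.4% of genes). At normal steps they were 5 for ST-HSC against MPP, 4 for MPP against CMP and 5 for CMP against GMP (18.9%, 14.5% and 36.7%). The other pathway genes called were 40, 47, 42 and 39 in the 4 leukaemias (48.4%, 62.5%, 59.8% and 58.4%). For STHSC:MA9 against the others, 2 were called (3.36%). After GC and length correction Pdk1 and Hk1 were called in GMP:MA9, where 2593 of 12090 genes were called. Without LT-HSC and ST-HSC replicates 4 and 5, 1 member was called for LT-HSC against ST-HSC and 1 for ST-HSC against MPP, as was 1 in the latter with a pseudocount of 0.1. Median-ratio scaling gave 5 for CMP against GMP, and nuclear-gene scaling 1 pathway gene for STHSC:MA9 against the others. For CMP against GMP the GC and length correction left the count at 3, with Hk1 (0.83) and Slc2a3 (0.96) lost and Hk2 (-1.03) and Hk3 (-1.94) gained. The causes were not tested.

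Directions that turned were of values not called. In STHSC:MA9 Pfkl was 0.015 under median-ratio scaling and 0.020 after GC and length correction. Ldha in MPP:MA9 was 0.021 under median-ratio scaling. In GMP:MA9 Hk3 was -0.066 after GC and length correction, and nuclear-gene scaling gave Ldha 0.098 and Pfkl 0.052. For LT-HSC against ST-HSC, median-ratio scaling gave Ldhb 0.071, Ldha 0.072 and Pfkl 0.087, GC and length correction gave Ldhb 0.034 and Ldha 0.021, and leaving out replicates 4 and 5 gave Ldhb 0.21, Ldha 0.090, Hk2 -0.26 and Pfkl 0.0062. For ST-HSC against MPP, Hk2 was 0.031 and Slc2a1 0.080 after GC and length correction, and Hk2 was 0.0053 under nuclear-gene scaling. Pfkl was -0.24 for CMP against GMP after that correction. For CMP against MEP, Pfkl was -0.030 and Slc2a3 -0.091 under median-ratio scaling, and -0.16 and -0.23 after GC and length correction.

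Leaving out each sample in turn gave 0 to 1 members for LT-HSC against ST-HSC and for ST-HSC against MPP, and 0 to 1 pathway genes for STHSC:MA9 against the others (1 without STHSC:MA9 replicate 1 or MPP:MA9 replicate 2). It gave -0.16 to 0.056 for Pfkl in STHSC:MA9. For LT-HSC against ST-HSC it gave -0.36 to 0.16 for Ldhb, -0.18 to -0.0055 for Ldha, -0.032 to 0.19 for Hk1, -0.14 to 0.27 for Hk2, -0.14 to 0.059 for Pfkl and -0.26 to 0.038 for Slc2a1. For MPP against CMP it gave -0.34 to 0.068 for Hk3 and -0.054 to 0.17 for Pgk1, and for CMP against GMP -0.15 to 0.057 for Slc2a1. The Hk3 and Slc2a3 shares kept their direction in STHSC:MA9 and CMP:MA9, with the Hk3 share 52.8 to 60.8 percentage points higher in STHSC:MA9 and 37.2 to 46.1 in CMP:MA9, and the Slc2a3 share differing by -25.1 to -11.0 and -47.3 to -36.9 points. These calls were lost because fewer samples allow no smaller p. The Hk2 share difference in CMP:MA9 turned without replicate 1 of that group and ran from -0.44 to 3.66 points.

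With the replicate number as a block, the members called without Ldhb were 3, 5, 3 and 0 of 9 in the 4 leukaemias, as in the main fit. All genes called there were 3011, 3414, 3437 and 2829 of 12600. At the 5 normal steps 0, 0, 1, 4 and 4 members were called, with Hk3 gained for CMP against GMP. All genes called at these steps were 273, 401, 563, 1403 and 1505 of 12367. No other call of a member changed. Outside LT-HSC and ST-HSC the numbers were not taken to pair samples (correlations -0.194 to 0.294). With the block and the GC and length correction together, the count of members called in GMP:MA9 was the same as with that correction alone (2609 of 12090 genes called). For ST-HSC against MPP 1 member was called (276 of 11882 genes). Directions then turned for Hk2 (-0.019) and Hk3 (-0.12) in GMP:MA9, Ldhb (0.034) and Ldha (0.021) for LT-HSC against ST-HSC, Hk2 (0.11) and Slc2a1 (0.065) for ST-HSC against MPP, Pfkl (-0.24) for CMP against GMP, and Pfkl (-0.17) and Slc2a3 (-0.27) for CMP against MEP. Read totals are not part of the values, so precision at low FPKM is unknown.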
